A study of Homo sapiens with 6 samples.

Results

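Prostaglandin E2 is a lipid signal made from arachidonic acid, a fatty acid that is stored in membrane phospholipids. Cytosolic phospholipase A2 (PLA2G4A) frees arachidonic acid, the cyclooxygenases PTGS1 (COX-1) and PTGS2 (COX-2) turn it into prostaglandin H2, and the prostaglandin E synthases PTGES, PTGES2 and PTGES3 turn that into prostaglandin E2. The dehydrogenase HPGD inactivates it, and the receptors PTGER2 (EP2) and PTGER4 (EP4) answer it by raising cyclic AMP. PTGS2 is the inducible cyclooxygenase, known for its rapid induction by inflammatory signals and for its raised level in many epithelial tumours.

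The mRNA levels of these 9 genes, of 58174 in the deposited table, were described in SiHa cells, a human cervical squamous carcinoma line. The OV-BRCA1 group (3 samples) received the GV230-BRCA1 plasmid and the NC group (3 samples) the empty GV230 plasmid, both with Lipofectamine 3000 and both harvested after 48 h. The transfection was transient, the cells keep their own BRCA1 gene, and the share of cells that took up plasmid is not given in the sources used here. The genes were chosen by their place in the pathway, with the FPKM values of PTGS2 and the other members in these same 6 samples already known. For that reason their differences between the groups are described with values and errors and without a p-value.

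Of the 9 genes, 5 (PTGS2, PTGES, PTGES2, PTGES3 and PLA2G4A) passed the filter on low values, which kept 16321 genes with at least 0.5 FPKM (fragments per kilobase of transcript, scaled to the depth of the library) in at least 3 samples. PTGS2 was 8.42-fold higher in the OV-BRCA1 group, and PLA2G4A was 1.71-fold higher. The 3 synthases differed much less, PTGS1 and PTGER4 were below 0.6 FPKM everywhere, and HPGD and PTGER2 were at or near 0. The differences along the pathway were thus unequal, with the largest fold at the cyclooxygenase step.

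The promoter windows of PTGS2 and PLA2G4A, the tested members with the widest differences, and of PTGES, the most abundant member, are shown first, because they hold the sequence context of the values that follow. The windows are from RefSeq (GRCh38.p14) and run from 250 bases before to 50 bases after the annotated start, written 5′ to 3′ along the gene. All 9 members had such a window. Capitals mark matches to 7 short motifs searched on both strands. PTGS2 lies at chr1:186680374-186680673 on the minus strand, PLA2G4A at chr1:186828699-186828998 on the plus strand and PTGES at chr9:129752993-129753292 on the minus strand.
PTGS2: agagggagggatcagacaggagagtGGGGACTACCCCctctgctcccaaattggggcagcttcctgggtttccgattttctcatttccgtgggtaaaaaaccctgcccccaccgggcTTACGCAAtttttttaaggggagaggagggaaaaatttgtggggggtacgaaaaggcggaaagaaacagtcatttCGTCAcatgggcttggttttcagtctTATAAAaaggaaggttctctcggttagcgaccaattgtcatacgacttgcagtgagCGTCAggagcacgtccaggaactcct
PLA2G4A: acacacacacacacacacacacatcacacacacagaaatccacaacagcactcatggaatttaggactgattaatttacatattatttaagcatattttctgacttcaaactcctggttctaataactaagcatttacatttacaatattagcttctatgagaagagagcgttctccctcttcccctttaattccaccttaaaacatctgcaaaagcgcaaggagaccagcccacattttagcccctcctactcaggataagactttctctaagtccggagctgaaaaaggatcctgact
PTGES: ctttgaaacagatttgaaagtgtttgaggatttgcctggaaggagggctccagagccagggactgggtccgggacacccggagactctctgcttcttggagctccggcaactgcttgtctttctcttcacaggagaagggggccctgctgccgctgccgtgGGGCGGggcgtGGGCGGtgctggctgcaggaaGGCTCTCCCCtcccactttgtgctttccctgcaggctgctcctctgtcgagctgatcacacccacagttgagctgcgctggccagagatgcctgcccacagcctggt

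The motifs were TATAAA (called the TATA box), CGTCA (the core of a cyclic AMP response element), TTGCNNAA (C/EBP like), TGANTCA (AP-1 like), GGGCGG (GC box), TTCNNNGAA (STAT GAS like) and an NF-kB-like pattern of GGG, any 5 letters and CC. In the PTGS2 window, a TATA box began at position -32 and CGTCA matches began at -58 and 24, counted to the leftmost base of each match with the first transcribed base as 0. The C/EBP-like match began at -133, and the 3 NF-kB-like matches at -225, -224 and -223 overlapped each other and count as 1 stretch. The PTGS2 window held no GC box. Over 35116 windows of this length, 11.5% held the TATA box, 24.6% the CGTCA core, 58.7% the NF-kB-like pattern, 10.5% the C/EBP-like pattern and 45% the GC box. The AP-1-like and STAT GAS-like patterns, held by 7.71% and 7.66% of windows, had no match in any of the 3 windows shown.

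The PLA2G4A window held none of the 7 motifs, and its GC content was 39.7%, against 50.7% for PTGS2, 61.7% for PTGES and a median of 58.7% over all windows. The PTGES window held 1 NF-kB-like match at -57 and GC boxes at -89 and -78. PTGES2, PTGES3 and PTGER4 each held 4 GC boxes. Most motifs of the PTGS2 window were also found in other members. The NF-kB-like pattern had a match in every member window except that of PLA2G4A. CGTCA matches began at -21 in PTGES3 and at -137 in PTGER2, and a TATA box at -208 in PTGS1. The C/EBP-like pattern had no match in the other members. A match of letters is a description of the window and does not show that a factor bound there.

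The 3′ end of the PTGS2 mRNA is known for AU-rich elements, repeats of ATTTA that shorten the life of many inflammatory mRNAs. The stretch of 30 bases richest in them is shown because 2 of the 5 PTGS2 transcripts described below hold it. It covers positions 1951 to 1980 of the protein-coding transcript ENST00000367468 (GENCODE 29, sequence written as DNA), whose coding part including the stop codon ends at 1952. Capitals mark 3 overlapping ATTTA.
PTGS2 AU-rich stretch: agaagtctaatgatcatATTTATTTATTTA

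The protein-coding transcript held 24 ATTTA in its 4514 bases, and 0.784% of 80389 coding transcripts held at least as many. The median over coding transcripts was 1. The PLA2G4A mRNA ENST00000367466 held 10 ATTTA, a number reached by 6.94% of coding transcripts, whereas ENST00000340607 of PTGES held 1. ENST00000614328 of PTGES3 held 8 (reached by 9.89%) and ENST00000302472 of PTGER4 held 9 (8.27%), though the groups overlapped for both genes. Per kilobase, ENST00000614328 of PTGES3 held 3.85 and the PLA2G4A mRNA 3.48.

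The estimated depth of the libraries was 13.64 to 16.09 M fragments for OV-BRCA1 samples and 15.58 to 19.12 M for NC samples, and Pearson's r over genes was 0.985 to 0.986 within groups and 0.951 to 0.955 between them. BRCA1, the transfected gene, was 35.7, 40.8 and 34.9 FPKM in the OV-BRCA1 samples and 20.1, 14.9 and 21.7 in the NC samples, which do not overlap. Mitochondrial transcripts held 14.84% to 17.25% of summed FPKM in OV-BRCA1 samples and 21% to 23.2% in NC samples. Of 10 epithelial markers, 7 were tested and 3 rose, 1 fell (the call of KRT8 held in 5 of 12 alternatives), and their summed level was 3330 to 3491 against 3718 to 3843 FPKM. The keratins KRT7, KRT8, KRT17 and KRT18 were abundant, whereas KRT5, KRT19 and TP63 did not pass the filter. CDH1 was low, at 0.726 ± 0.267 FPKM in OV-BRCA1 samples and 0.435 ± 0.272 in NC samples. Of 6 leukocyte markers, 2 were tested, and their summed level was 31.3 to 37.2 FPKM against 22.2 to 24.0. PTPRC was listed at 0 in all samples, CD68 rose from 3.43 to 26.3 FPKM and CD14 fell from 19.4 to 7.80. The 3 endothelial markers summed to 0.761 to 1.45 FPKM in OV-BRCA1 samples and 0.629 to 0.788 in NC samples, with VWF at 0, and the 5 fibroblast markers to 3.18 to 3.71 against 6.06 to 6.74, with LUM at 0. The part of these differences in the results below was not tested.

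PLA2G4A, which opens the pathway by releasing arachidonic acid, is on chromosome 1 at 186828953 to 186988981 on the plus strand (ENSG00000116711, GRCh38). Its level was 4.96, 4.75 and 5.19 FPKM in the OV-BRCA1 samples and 2.75, 2.73 and 3.24 in the NC samples. Every OV-BRCA1 sample was above every NC sample. The means were 4.97 ± 0.218 and 2.91 ± 0.294 FPKM (SD, n = 3 each), and the log2 fold change on log2(FPKM + 1) was 0.61 with a standard error of 0.087. The added 1 makes such a fold smaller than that of the FPKM themselves in low genes. The values rested on an estimated 203 to 220 fragments in OV-BRCA1 samples and 123 to 178 in NC samples. The protein-coding PLA2G4A-201 carried 98.4% of the level in OV-BRCA1 samples and all of it in NC samples. In bulk RNA, a change in the number of cells that express a gene and a change in its RNA per cell cannot be told apart.

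PTGS2, the inducible cyclooxygenase, lies 148.5 kb from PLA2G4A, at 186671791 to 186680427 on the minus strand of chromosome 1 (ENSG00000073756). It was 51.9, 56.0 and 58.0 FPKM in the OV-BRCA1 samples and 7.13, 6.71 and 5.87 FPKM in the NC samples. The lowest OV-BRCA1 sample was far above the highest NC sample. The means were 55.3 ± 3.11 and 6.57 ± 0.641 FPKM, and the log2 fold change was 2.90 with a standard error of 0.083. An estimated 3060 to 3540 fragments lay behind the OV-BRCA1 values and 430 to 485 behind the NC values. Among the tested genes 42 had a larger rise, and PTGS2 ranked 2483 by mean level.

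PTGS1, the constitutive cyclooxygenase of many tissues (ENSG00000095303, chromosome 9 at 122370530 to 122395703, plus strand), was near the limit of detection. Its level was 0.405, 0.263 and 0.313 FPKM in the OV-BRCA1 samples and 0.0324, 0.0317 and 0.0609 in the NC samples. The groups did not overlap, but the NC values stood for an estimated 1.17 to 4.39 fragments and the OV-BRCA1 values for 12.4 to 21.2, so no fold change is given. The level of PTGS2 was at least 96.4 times that of PTGS1 in every sample. With so few PTGS1 fragments, these ratios are not compared between the groups.

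**Figure D1:**
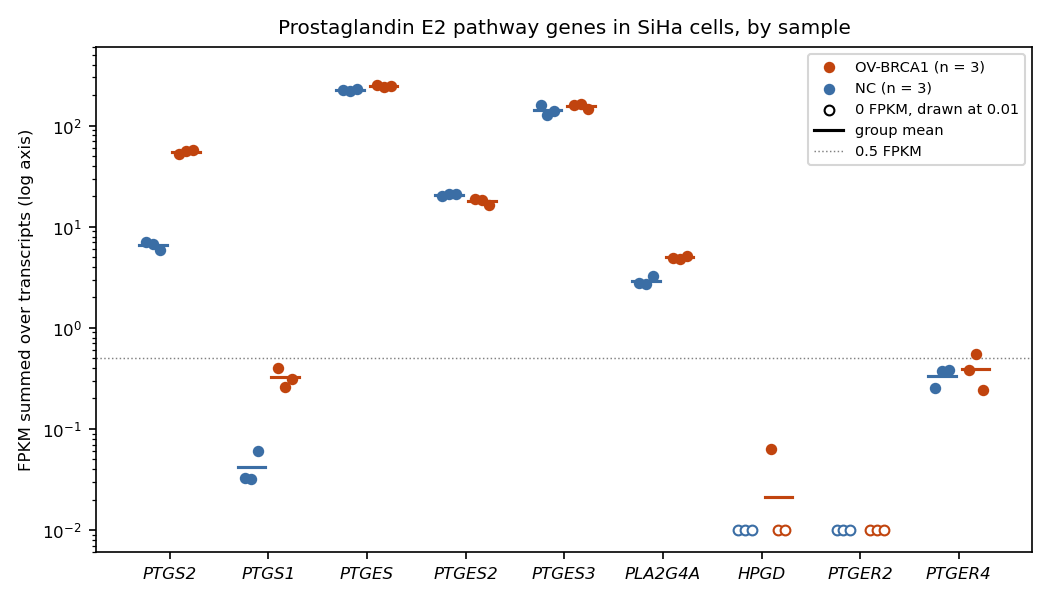
FPKM of the 9 genes in each sample on a log axis, with points for samples, short lines for group means and open points for values of 0 drawn at 0.01. The OV-BRCA1 points of PTGS2 lie between 51.9 and 58.0 FPKM and its NC points between 5.87 and 7.13, whereas the groups lie close together for PTGES, PTGES2 and PTGES3.

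The synthases PTGES and PTGES3 were the most abundant members. PTGES, the microsomal synthase usually coupled to PTGS2 (ENSG00000148344, chromosome 9 at 129738331 to 129753047, minus strand), was 250.1, 242.6 and 245.4 FPKM in the OV-BRCA1 samples and 227.0, 222.2 and 229.8 in the NC samples. The groups did not overlap, though the means of 246.0 ± 3.80 and 226.3 ± 3.87 FPKM differed only 1.09-fold, a log2 fold change of 0.12 with a standard error of 0.037. PTGES ranked 226 of the tested genes by mean level. The level of PTGES was 31.8 to 39.1 times that of PTGS2 in the NC samples and 4.23 to 4.82 times in the OV-BRCA1 samples, a ratio that follows from the values already given.

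PTGES2, the membrane-associated synthase (ENSG00000148334, chromosome 9 at 128120693 to 128128462, minus strand), was the one member that was lower in the OV-BRCA1 group. It was 18.8, 18.5 and 16.5 FPKM in the OV-BRCA1 samples and 20.1, 21.2 and 20.9 in the NC samples, without overlap. The log2 fold change was -0.20 with a standard error of 0.069. Most of its level, 60.8% in OV-BRCA1 samples and 64.1% in NC samples, was assigned to PTGES2-211, a transcript with a retained intron. Its coding transcript PTGES2-202 was 3.87 ± 0.392 and 4.02 ± 0.465 FPKM, with overlapping samples.

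PTGES3, the cytosolic synthase that is also the HSP90 co-chaperone p23 (ENSG00000110958, chromosome 12 at 56663341 to 56688408, minus strand), was 160.2, 162.0 and 147.1 FPKM in the OV-BRCA1 samples and 159.3, 127.5 and 138.5 in the NC samples. The groups overlapped, and the log2 fold change was 0.15 with a standard error of 0.089. PTGES3 has processed pseudogenes in the annotation, which could share its reads, and the small RNA gene RN7SL809P lies on the same strand within it.

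HPGD, the enzyme that starts the inactivation of prostaglandin E2 (ENSG00000164120, chromosome 4 at 174490177 to 174523154, minus strand), was 0.0635 FPKM in OV-BRCA1 replicate 1, an estimated 3 fragments, and was listed at 0 in the other 5 samples. The receptor PTGER2 (ENSG00000125384, chromosome 14 at 52314305 to 52328606, plus strand) was listed at 0 in all 6. At the estimated depths, 3 fragments of its longest coding transcript would be worth 0.0658 to 0.0923 FPKM, which is taken here as a rough limit of detection. A count of 0 can also come from a somewhat higher level, and this limit covers counting error only. The receptor PTGER4 (ENSG00000171522, chromosome 5 at 40679498 to 40693735, plus strand) was 0.379, 0.549 and 0.241 FPKM in the OV-BRCA1 samples and 0.251, 0.370 and 0.384 in the NC samples. These samples overlapped, and the coding gene TTC33 (7.44 FPKM) overlaps PTGER4 on the other strand. Reads of the pair cannot be told apart if strand was not used.

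Within the OV-BRCA1 group the order of levels was PTGES, PTGES3, PTGS2, PTGES2 and PLA2G4A, with no overlap between neighbours. In the NC group PTGES2 stood above PTGS2, and the rest of that order was the same. PTGER4 and PTGS1 came next and overlapped each other in the OV-BRCA1 group, whereas in the NC group every PTGER4 value was above every PTGS1 value.

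Counted over the members, 5 of 9 had groups that did not overlap (4 higher, 1 lower). Among the 5 tested members the number was 4, beside 50.8% of all tested genes. The study's criterion is an adjusted p-value under 0.05 with an absolute log2 fold change above 1, and PTGS2 alone of the tested members had a fold change of that size. Of all tested genes, 2.89% met the criterion as higher and 1.10% as lower. The median log2 fold change was 0.15 over the tested members and -0.04 over all tested genes. These counts are read only as a description, since the values were known when the genes were chosen.

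The rise of PTGS2 was spread unequally over its annotated transcripts. PTGS2-203 (ENST00000490885), a processed transcript with no annotated coding part, was 27.6, 29.6 and 28.9 FPKM in the OV-BRCA1 samples and 2.48, 0 and 1.17 in the NC samples. The protein-coding PTGS2-201 was 21.6, 24.0 and 25.3 FPKM in the OV-BRCA1 samples and 3.95, 5.72 and 4.26 in the NC samples. For PTGS2-201 the groups did not overlap, the means were 23.7 ± 1.86 and 4.64 ± 0.944 FPKM, and the ratio was 5.09-fold. On the log2(FPKM + 1) scale the coding transcript alone changed by 2.14, less than the 2.90 of the summed gene.

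PTGS2-203 held 51.9% of the gene level in OV-BRCA1 samples and 18.5% in NC samples, and PTGS2-201 held 42.8% and 70.7%. Both contain the AU-rich stretch shown above. PTGS2-203 is 3690 bases long with 16 ATTTA. PTGS2-202 (888 bases, none) was 2.56 ± 0.710 and 0.711 ± 0.276 FPKM, and PTGS2-204 was 0.378 FPKM in OV-BRCA1 samples and listed at 0 in NC samples. PTGS2-205 was listed at 0 throughout. Shares between transcripts that overlap depend on how reads were divided among them, and the tool that did this is not given in the sources used here.

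**Figure D2:**
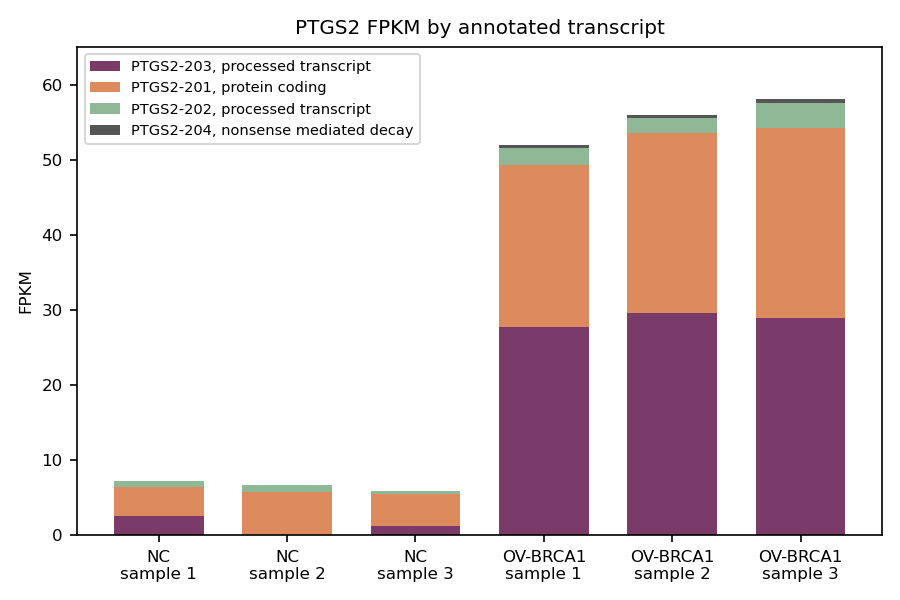
FPKM of PTGS2 in each sample, stacked by annotated transcript (bars start at 0). PTGS2-203 takes 51.9% of the OV-BRCA1 level and 18.5% of the NC level, and the coding PTGS2-201 is higher in every OV-BRCA1 sample than in any NC sample.

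The leading transcripts of the synthases changed their shares less. PTGES-201, the coding transcript, held 85.1%, 95.6% and 84.7% of the PTGES level in the OV-BRCA1 samples and 85.6%, 83.5% and 84.9% in the NC samples, where OV-BRCA1 replicate 2 alone stood apart. PTGES3-202 was 79.4 ± 8.93 FPKM in OV-BRCA1 samples and 58.3 ± 7.62 in NC samples, and PTGES3-204 was 43.3 ± 0.673 and 45.8 ± 2.21. The share of PTGES3-202 was 46.2%, 55.4% and 50.6% in the OV-BRCA1 samples and 40.9%, 39.3% and 43.0% in the NC samples. For this transcript neither the shares nor the FPKM overlapped, unlike the summed gene.

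The tested genes nearest to PTGS2 and PLA2G4A on the chromosome were set beside them. PACERR, a noncoding RNA that starts 0.2 kb from PTGS2 on the other strand, was 0.685 ± 0.334 FPKM in OV-BRCA1 samples and 0.630 ± 0.278 in NC samples (adjusted p = 0.873, limma). Before PTGS2, the overlapping genes ODR4 (log2 fold change 0.66, adjusted p = 0.0557) and OCLM (0.28, adjusted p = 0.129) did not pass in limma's test. ODR4 passed when NC replicate 1 or NC replicate 3 was left out (adjusted p from 0.0286 to 0.587 over the limma alternatives).

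The next tested gene after PLA2G4A began 5820.1 kb beyond the end of PLA2G4A. It was RGS2, a brake on signalling by G protein-coupled receptors, at 27.2, 24.7 and 26.7 FPKM in the OV-BRCA1 samples and 5.63, 5.61 and 6.32 in the NC samples. The groups did not overlap, and RGS2 rose by 1.99 on the log2 scale (SE 0.073, limma adjusted p = 1.37e-05). UCHL5, a deubiquitinase of the proteasome, rose by 0.46 (limma adjusted p = 0.0192), a call that was lost without NC replicate 1 or NC replicate 3 (highest adjusted p = 0.0608).

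**Figure D3:**
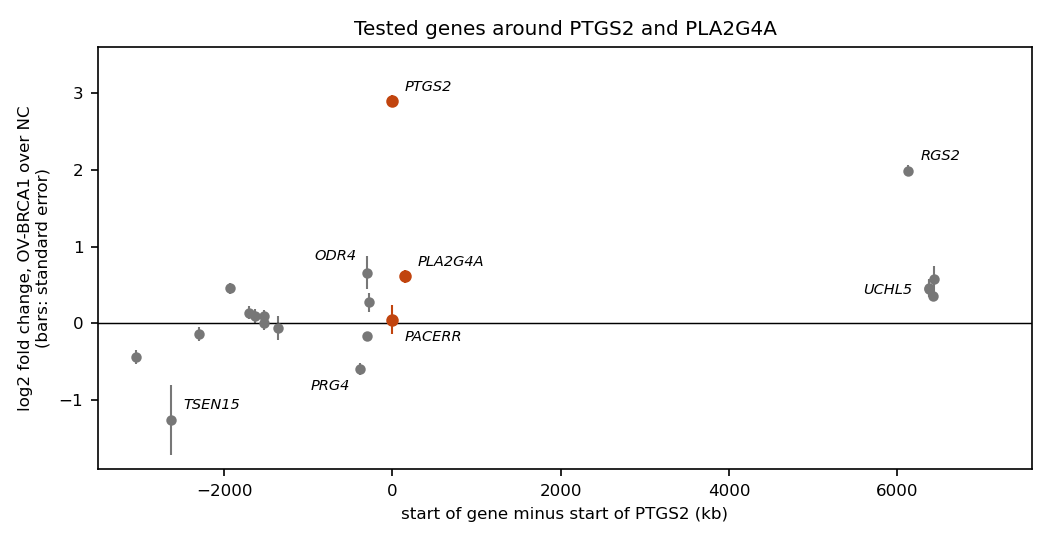
Log2 fold change (OV-BRCA1 over NC, on log2(FPKM + 1)) of tested genes against the distance of their start from that of PTGS2 in kb. Bars show the standard error. Genes that reach into the stretch from 3000 kb before PTGS2 to 7000 kb after the end of PLA2G4A are drawn. PTGS2 (2.90) and RGS2 (1.99) stand above the other genes, and PACERR (0.05) lies near 0.

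Around the 9 members, 96 other genes of prostanoid metabolism and of the known control of PTGS2 were listed by role, and 62 of them were tested. By limma with Benjamini-Hochberg adjustment over all genes, 11 rose and 15 fell. Of the 11, 2 (IL1A and ALOXE3) passed the filter on low values only through the OV-BRCA1 samples and had to differ to be tested. The counts stand beside 16.4% of all tested genes that rose and 18.9% that fell. None of the 62 met the criterion as higher, where 13 rose at an unadjusted p under 0.05, and 4 met it as lower (AKR1C3, PLA2G6, FOS and FOSB). The median log2 fold change was -0.05, close to the -0.04 of all tested genes.

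Of 18 genes of arachidonate release and reacylation, 10 were tested, 1 rose and 2 fell. ACSL4, which activates arachidonic acid for return to membranes, rose from 34.5 ± 0.930 to 59.1 ± 1.14 FPKM, a log2 fold change of 0.76 (SE 0.047, limma adjusted p = 1.20e-04). PLA2G6, the calcium-independent phospholipase A2, was 2.77, 2.37 and 2.13 FPKM in the OV-BRCA1 samples and 6.91, 5.46 and 6.41 in the NC samples. PLA2G6 fell by 1.08 (SE 0.115, limma adjusted p = 9.84e-04), the opposite direction to PLA2G4A, and MAFF overlaps it on the other strand. On its most abundant transcript alone PLA2G6 fell by 0.63 (limma adjusted p = 0.0214), which is short of the criterion. MGLL, the lipase that degrades monoacylglycerol, fell by 0.25 (limma adjusted p = 0.0335), and this call held in 4 of 12 alternatives. On its most abundant transcript alone MGLL had a log2 fold change of -1.99 with a standard error of 0.864 and did not pass (limma adjusted p = 0.179). MBOAT7, which places arachidonic acid in phosphatidylinositol, was 59.6 ± 4.76 and 60.0 ± 7.47 FPKM.

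Of the 8 other prostanoid synthases, 5 were tested and 2 fell. AKR1C3, which makes prostaglandin F2 from other prostaglandins, was 24.5, 32.8 and 32.6 FPKM in the OV-BRCA1 samples and 98.0, 86.3 and 88.3 in the NC samples. It fell by 1.58 (SE 0.123, limma adjusted p = 2.96e-04), and its close paralogs AKR1C1 and AKR1C2 could share its reads. The call of AKR1C3 was lost when its most abundant transcript stood for the gene, where the log2 fold change was -1.998 with a standard error of 1.51 (limma adjusted p = 0.417). AKR1B1, an aldose reductase that can also make prostaglandin F2, fell from 775.1 ± 27.3 to 428.9 ± 15.4 FPKM (log2 fold change -0.85, limma adjusted p = 7.22e-05). CBR1 was too variable to place, at 114.0 ± 28.0 and 97.0 ± 48.5 FPKM. NC replicate 2 was at 41.1 FPKM against 121.5 and 128.3 in the other NC samples. Without it the log2 fold change of CBR1 turned from 0.36 to -0.16.

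Of 5 genes of prostaglandin transport and breakdown, all were tested and 1 rose. This was SLCO2A1, the prostaglandin uptake carrier, at 1.72 ± 0.223 against 0.952 ± 0.0990 FPKM (log2 fold change 0.48, limma adjusted p = 0.0121). PTGR1, a reductase of prostaglandin breakdown, was 33.6 ± 4.73 against 42.6 ± 3.92 FPKM and did not pass (limma adjusted p = 0.0645), though it did without OV-BRCA1 replicate 1 (adjusted p = 0.0200) and with scaling to nuclear protein-coding genes (0.0388). CBR3 did not pass either (limma adjusted p = 0.808). The 7 other prostanoid receptors, PTGER1 and TBXA2R among them, were all below the filter, as were both receptors described above.

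Of 13 genes of the lipoxygenase and leukotriene branch, the other fate of arachidonic acid, 4 were tested. LTA4H, which makes leukotriene B4, fell from 44.6 ± 1.91 to 34.8 ± 0.562 FPKM (limma adjusted p = 0.00351), but did not pass on its most abundant transcript alone (log2 fold change -0.26, adjusted p = 0.148). Its receptor LTB4R, which shares sequence with the overlapping gene LTB4R2, fell from 16.4 ± 1.69 to 10.7 ± 0.576 FPKM (limma adjusted p = 0.00477). ALOXE3, an epidermal lipoxygenase, rose from 0.130 ± 0.0610 to 0.757 ± 0.228 FPKM (limma adjusted p = 0.00904), and it passed the filter only through the OV-BRCA1 samples.

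**Figure D4:**
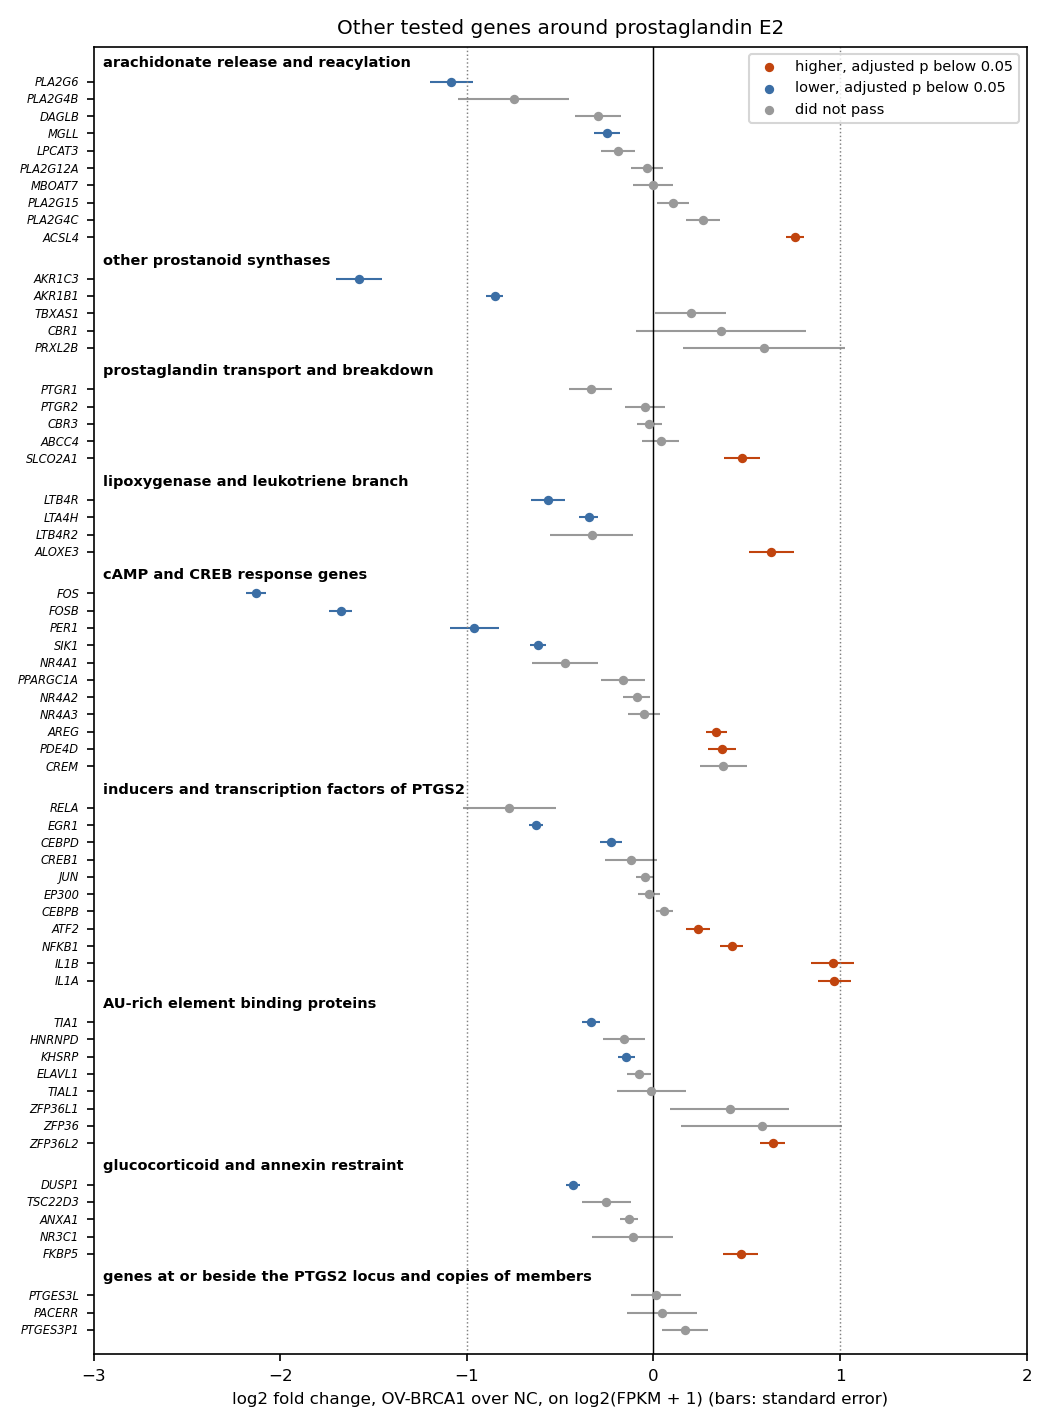
Log2 fold change with standard error of the 62 tested genes of the lists, grouped by role, with colour for the direction of those past the limma test and dotted lines at 1 and -1. FOS (-2.13), FOSB (-1.68), AKR1C3 (-1.58) and PLA2G6 (-1.08) lie beyond the lower line, and no gene lies beyond the upper line.

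Among 12 inducers and transcription factors of PTGS2, 11 were tested, 4 rose and 2 fell. IL1A was 1.42, 1.62 and 1.44 FPKM in the OV-BRCA1 samples and 0.337, 0.253 and 0.231 in the NC samples, and IL1A rose by 0.97 (SE 0.087, limma adjusted p = 5.08e-04). It passed the filter on low values only through the OV-BRCA1 samples, so that it had to differ to be tested. IL1B was 2.48, 2.20 and 2.29 FPKM in the OV-BRCA1 samples and 0.565, 0.612 and 0.974 in the NC samples, and IL1B rose by 0.96 (SE 0.116, limma adjusted p = 0.00158). Both encode interleukin-1, a classical inducer of PTGS2. NFKB1, a subunit of NF-kB, rose from 11.2 ± 0.544 to 15.4 ± 0.135 FPKM (log2 fold change 0.42, limma adjusted p = 0.00316).

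RELA, the other listed subunit of NF-kB, was 33.5, 15.8 and 19.9 FPKM in the OV-BRCA1 samples and 37.6, 39.6 and 37.4 in the NC samples. Its groups did not overlap and its log2 fold change was -0.77 (SE 0.249), but it did not pass (limma adjusted p = 0.0544). OV-BRCA1 replicate 1 lay nearest to the NC samples, and without it RELA met the criterion as lower (log2 fold change -1.07, limma adjusted p = 0.00264, range over the alternatives 0.00264 to 0.171). RELA also passed with scaling to nuclear protein-coding genes, and on its most abundant transcript alone its log2 fold change was -3.08 with a standard error of 1.31 (limma adjusted p = 0.171).

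EGR1, an immediate early factor, fell from 185.8 ± 2.70 to 119.8 ± 2.07 FPKM (log2 fold change -0.63, limma adjusted p = 1.19e-04). CEBPB, a factor of the acute phase response, was 174.8 ± 4.25 and 167.9 ± 5.25 FPKM (limma adjusted p = 0.344). The remaining calls were small. ATF2 rose by 0.24 (limma adjusted p = 0.0308, up to 0.626 over the alternatives, kept in 4 of 12), and CEBPD fell by 0.23 (adjusted p = 0.0277, up to 0.0798, kept in 6 of 12). TNF was below the filter.

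Through PTGER2 and PTGER4, prostaglandin E2 can act by way of cyclic AMP and CREB, so 12 genes known to respond to them were listed. Both receptors were below the filter in these cells, and prostaglandin E2 itself was not measured. Of the 11 tested, 2 rose and 4 fell. FOS was 68.2, 70.6 and 72.9 FPKM in the OV-BRCA1 samples and 308.7, 328.9 and 299.1 in the NC samples. FOS fell by 2.13 (SE 0.053, limma adjusted p = 3.88e-06). FOSB, its close relative, was 14.4, 13.9 and 13.9 FPKM in the OV-BRCA1 samples and 43.9, 49.1 and 48.6 in the NC samples, and fell by 1.68 (SE 0.062, limma adjusted p = 1.46e-05). ERCC1 overlaps FOSB on the other strand, and the call of FOSB was lost on its most abundant transcript alone, with a log2 fold change of -1.45 and a standard error of 1.13 (limma adjusted p = 0.428).

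The kinase gene SIK1 fell from 57.7 ± 0.358 to 37.3 ± 0.457 FPKM (limma adjusted p = 1.75e-04), and the clock gene PER1 from 7.97 ± 0.316 to 3.65 ± 0.750 FPKM (limma adjusted p = 0.00261). On its most abundant transcript alone PER1 did not pass (log2 fold change 0.06, limma adjusted p = 0.959). The growth factor AREG rose by 0.34 (limma adjusted p = 0.00506) and the phosphodiesterase PDE4D, which degrades cyclic AMP, by 0.37 (limma adjusted p = 0.0129). NR4A1, an early cyclic AMP target, was 175.3 ± 42.4 against 241.1 ± 31.0 FPKM and did not pass (limma adjusted p = 0.0815). It passed without OV-BRCA1 replicate 2 (limma adjusted p = 0.0140) and on its most abundant transcript alone (log2 fold change -0.45, limma adjusted p = 0.0266). The list as a whole thus had calls in both directions.

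Of 9 proteins that bind AU-rich elements, 8 were tested, 1 rose and 2 fell. ZFP36L2, which speeds the decay of bound mRNAs, rose from 10.9 ± 0.702 to 17.5 ± 0.308 FPKM (log2 fold change 0.64, limma adjusted p = 9.17e-04). TIA1, which represses their translation, fell from 45.9 ± 1.07 to 36.2 ± 0.982 FPKM (limma adjusted p = 0.00307). KHSRP fell by 0.15 (limma adjusted p = 0.0452), a call kept in 4 of 12 alternatives (highest adjusted p = 0.125). HNRNPD, also called AUF1, was 125.3 ± 19.0 and 138.7 ± 0.717 FPKM (log2 fold change -0.16, limma adjusted p = 0.313). OV-BRCA1 replicate 1 was at 103.4 FPKM against 136.8 and 135.7 in the other OV-BRCA1 samples, and without it the log2 fold change was -0.03. On its most abundant transcript alone HNRNPD met the criterion as lower (log2 fold change -1.65, limma adjusted p = 1.65e-04).

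The genes whose profile over the 6 samples lay nearest to that of PTGS2 were AC012435.1, CXCL1, IL13RA2, OAS2 and CEACAM20, at Euclidean distances of 0.15, 0.168, 0.206, 0.206 and 0.21 between mean-centred log2(FPKM + 1) values. With 2 groups of 3 samples, this measure picks genes with a rise of the same size. CXCL1, a chemokine for neutrophils, was 86.1, 84.9 and 84.8 FPKM in the OV-BRCA1 samples and 11.4, 10.5 and 10.3 in the NC samples. OAS2, an antiviral enzyme induced by interferon, was 124.3, 132.3 and 147.0 FPKM in the OV-BRCA1 samples and 18.9, 18.4 and 18.2 in the NC samples. IL13RA2, a receptor for interleukin-13, had means of 28.0 and 2.75 FPKM, CEACAM20 7.76 and 0.131 FPKM, and AC012435.1, which overlaps UBL7-AS1 on the other strand, 17.3 and 1.54 FPKM.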

How the data were processed

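The deposited FPKM values, normalized by the authors from read counts, were used per transcript (199167 transcripts) in 6 mRNA-seq samples, and the table of the series held the same values as the 6 sample files. The submitters' processing notes name FastQC, HISAT2 and hg38. The quantification tool and the use of strand are not given in the sources used here. FPKM were summed per gene and named by GENCODE 29, which held 198868 of the transcripts. Depth was estimated from the value of 1 fragment in 14216 genes with a single transcript, and fragment numbers and limits of detection cover counting error only.

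Genes that reached 0.5 FPKM in 3 or more samples entered a moderated linear fit with a mean-variance trend (limma 3.58.1, R 4.3.3) of log2(FPKM + 1), with Benjamini-Hochberg adjustment over all tested genes. The study's criterion (adjusted p-value below 0.05, absolute log2 fold change above 1) was kept. Its count test could not be repeated on FPKM. The study's methods call the 3 samples of a group biological replicates without saying how they were raised, so p-values measure the spread between these samples.

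The members and lists were chosen with earlier results of these data known. Genes were named as members, as list genes past the criterion or with the 2 highest mean levels of a list, as the 5 nearest profiles and as the nearest 2 tested neighbours on each side. Other genes that passed the test, the marker genes and overlapping genes were named after their values were seen. Alternatives were a pseudocount of 0.1, no filter, leaving out 1 sample at a time, a block for the replicate number, scaling by the median of ratios or to nuclear protein-coding genes, the most abundant transcript of each gene and promoter windows of 250 bases. The coding PTGS2 transcript alone, and the most abundant transcript for genes other than the members, were added after seeing the data. Figures were drawn with matplotlib 3.10.9.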

Additional observations from a re-analysis of the deposited data

How the results depend on the processing

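PTGS2 was higher in the OV-BRCA1 group in all 13 alternatives. Its log2 fold change was 3.06 with a pseudocount of 0.1, 3.92 for the most abundant transcript, 2.14 for the protein-coding transcript alone, and 2.83 to 2.95 when each sample was left out. Deviations from the group means of samples with the same number correlated at -0.02, 0.02 and 0.01, so the numbers do not pair the samples, and with the replicate block the value was 2.90 (SE 0.098).

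With a pseudocount of 0.1, 764 genes met the criterion as higher and 516 as lower, against 472 and 179, so 59.7% of calls were higher in place of 72.5%. A smaller pseudocount gives low genes larger fold changes by construction. When each sample was left out the counts were 476 to 486 and 166 to 219, and with the replicate block 470 and 176. Of the list genes, 3 met the criterion as higher with a pseudocount of 0.1 (IL1A, IL1B and ALOXE3), and 0 to 1 did when each sample was left out, namely IL1A without NC replicate 1 and IL1B without NC replicate 3. As lower, PER1 met it with a pseudocount of 0.1 and without OV-BRCA1 replicate 2 or 3, and RELA without OV-BRCA1 replicate 1. By adjusted p alone, 10 to 12 list genes rose and 12 to 16 fell when each sample was left out, and 10 and 14 with the block. The balance moved with the scaling. By the median of ratios 13 rose and 13 fell, and with scaling to nuclear protein-coding genes 10 rose and 18 fell.

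The call of KHSRP was lost with the block (limma adjusted p = 0.0808) and in 7 other alternatives, and those of ATF2, CEBPD, MGLL and KRT8 in 6 to 8. ANXA1 and PTGR1 passed with scaling to nuclear protein-coding genes (limma adjusted p = 0.0295 and 0.0388), as did RELA. On their most abundant transcript alone, AKR1C3 (log2 fold change -1.998, limma adjusted p = 0.417), FOSB (-1.45, 0.428) and LTA4H (-0.26, 0.148) kept their direction but did not pass, whereas PER1 was at 0.06 in place of -0.96 (adjusted p = 0.959). PLA2G6 (-0.63) was then short of the criterion, and HNRNPD (-1.65), PLA2G4B (-1.16) and IL1B (1.11) met it. RELA (-3.08), MGLL (-1.99) and PTGR1 (-0.77) had lower values there without passing, KHSRP (-0.42) passed, and ANXA1 turned to 0.41 (SE 0.607). The cause was not tested. PTGES changed by 0.08 to 0.18 and PTGES3 by up to 0.44 on their most abundant transcript or under another scaling. The log2 fold change of PTGES3 was 0.07 without NC replicate 2 and 0.23 without NC replicate 1. Depth limits PTGS1, PTGER4, HPGD and PTGER2, where a difference was not detectable or rests on a few fragments. In windows of 250 bases, PTGS2 held 1 CGTCA core.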

Other observations

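Glucocorticoids restrain PTGS2, and 5 genes of that restraint were tested, of which 1 rose and 1 fell. DUSP1, a phosphatase that switches off stress kinases and is induced by glucocorticoids, was 153.6, 154.4 and 152.1 FPKM in the OV-BRCA1 samples and 208.7, 204.8 and 208.2 in the NC samples. DUSP1 fell by 0.43 on the log2 scale (limma adjusted p = 3.93e-04), with every OV-BRCA1 sample below every NC sample. FKBP5, another gene induced by glucocorticoids, rose from 3.47 ± 0.157 to 5.20 ± 0.587 FPKM (log2 fold change 0.47, limma adjusted p = 0.0109). ANXA1, an inhibitor of phospholipase A2 activity, did not pass (log2 fold change -0.13, limma adjusted p = 0.0805), and its direction turned on its most abundant transcript alone (0.41, SE 0.607). Among the copies and antisense genes of the members, 3 of 7 were tested and none passed, also at an unadjusted p under 0.05 (0 of 3). They were PACERR, PTGES3P1 and PTGES3L.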
